A study of Homo sapiens with 6 samples.

Results

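The ZBTB transcription factors are the zinc finger proteins named for an N-terminal BTB domain. Every row of the gene count table whose symbol was ZBTB, a number and at most 1 further letter was taken as a member, apart from ZBTB45, which was left out. This gave 40 genes among 78932 rows, and 37 of the 40 reached the minimum of 10 counts in 3 or more of the 6 libraries and were tested. T24, a line of urothelial carcinoma cells, was transfected either with a control siRNA (siNC, 3 libraries) or with siRNA against TRIM28 (siTRIM28, 3 libraries), and both groups were cultured in the same serum-supplemented medium with the same transfection reagent. The comparison asks how transcript levels differ once TRIM28, a corepressor and E3 ligase also called KAP1, has been depleted. T24 is a single line, more than 1 siRNA against TRIM28 is listed by the study without saying which was sequenced, and effects of the siRNA itself and of TRIM28 loss cannot be told apart in this design. The sample titles number the replicates of each group and name no batch or culture, and the p-values measure only the spread between these libraries.

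In ZBTB proteins the BTB domain pairs the protein with a second BTB protein and docks corepressors such as NCOR, SMRT, BCOR and SIN3A, while C2H2 zinc fingers near the other end read a DNA sequence or a methylated CpG. Some members also bind the ubiquitin ligase scaffold CUL3 through the same domain. The family is best known from lymphocyte development, globin switching and the repression of cell cycle inhibitors. TRIM28 itself is brought to DNA mainly by a different class of zinc finger protein, those with a KRAB domain.

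TRIM28 was at 102, 101 and 108 CPM (TMM-scaled counts relative to the library total) in siNC replicates 1, 2 and 3 and at 9.28, 8.11 and 9.21 CPM in siTRIM28 replicates 1, 2 and 3. The groups lay far apart, and the log2 fold change was -3.54 (SE 0.0723, adjusted p = 1.03e-10, edgeR quasi-likelihood test). Total counts ran from 11712623 to 14018052 per library, of which 8158 to 9629 fell on ZBTB members. siNC replicates 1 and 2, and siTRIM28 replicates 2 and 3, were much closer to each other than to the remaining replicate of their group (chi-square per degree of freedom 1.08 and 1.24, against 4.59 to 6.99 for the other pairs), though both pairs differed by more than sampling noise. Of the epithelial markers, KRT8 (mean 104 CPM in siNC) and KRT18 (86.1 CPM) were abundant and KRT7 was low (2.84 CPM), while KRT19 and EPCAM did not reach the count minimum. Of 6 urothelial differentiation markers only UPK1A (0.874 CPM in siNC and 3.41 CPM in siTRIM28) and FOXA1 (1.63 and 1.46 CPM) did, UPK1B was at 0 in all libraries, and none of 5 leukocyte and endothelial markers was testable.

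The promoters of 2 neighbouring pairs of members are printed here because both genes of each pair rose. Each is a window from 250 bases before to 50 bases after a RefSeq transcript start on GRCh38.p14, read on the strand of the gene. ZBTB43 and ZBTB34 lie in the same orientation on chromosome 9, with 24227 bases between the genes. In their windows (chr9:126804790-126805089 and chr9:126860389-126860688, both plus strand) capitals mark the 3 identical runs of 9, 10 and 10 bases.
ZBTB43: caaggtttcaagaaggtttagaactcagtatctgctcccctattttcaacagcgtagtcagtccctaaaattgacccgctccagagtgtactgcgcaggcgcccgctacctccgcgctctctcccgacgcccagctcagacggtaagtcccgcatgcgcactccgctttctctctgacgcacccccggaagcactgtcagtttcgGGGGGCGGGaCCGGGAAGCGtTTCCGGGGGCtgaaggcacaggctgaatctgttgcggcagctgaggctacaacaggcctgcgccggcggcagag
ZBTB34: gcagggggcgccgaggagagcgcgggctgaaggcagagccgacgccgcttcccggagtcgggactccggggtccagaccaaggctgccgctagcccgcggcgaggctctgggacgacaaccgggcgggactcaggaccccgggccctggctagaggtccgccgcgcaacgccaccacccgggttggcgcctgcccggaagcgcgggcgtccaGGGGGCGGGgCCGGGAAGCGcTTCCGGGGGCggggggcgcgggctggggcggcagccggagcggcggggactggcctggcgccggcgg
The runs fill a span of 31 bases in which 29 are identical. They include a GC box (GGGCGG) and, on the reverse strand, the ETS core CCGGAA. A member was counted as holding a motif if any of its windows held it on either strand. On that count the GC box was present in all 8 higher and all 7 lower members with a window. The ETS core was present in 5 of the 8 and 3 of the 7. No such share is given for all genes or for the members that did not pass. By window, the GC box was in 61.5% of member windows and 45% of all windows. The ETS core was in 24.6% and 17.2%. Of 1984 pairs of windows from different members, that of ZBTB43 and ZBTB34 shared the most bases in identical runs. Pairs of windows that overlap in the genome were left out of this ranking. Windows were compared only as read on the strand of the gene.

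ZBTB1 and ZBTB25 lie on opposite strands of chromosome 14. RefSeq gives 2 windows for ZBTB1 and 4 for ZBTB25, and the window printed for each holds the pair of starts that lie 49 bases apart and face away from each other. In these windows (chr14:64503637-64503936, plus strand, and chr14:64503789-64504088, minus strand) capitals mark the 148 bases that both windows hold on opposite strands.
ZBTB1: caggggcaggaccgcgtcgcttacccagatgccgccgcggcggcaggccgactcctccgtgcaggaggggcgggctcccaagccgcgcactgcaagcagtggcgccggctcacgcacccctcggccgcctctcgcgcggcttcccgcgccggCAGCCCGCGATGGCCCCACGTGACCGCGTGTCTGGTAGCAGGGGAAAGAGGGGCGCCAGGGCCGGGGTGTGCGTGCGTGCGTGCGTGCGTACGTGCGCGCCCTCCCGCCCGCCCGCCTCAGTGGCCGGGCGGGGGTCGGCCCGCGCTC
ZBTB25: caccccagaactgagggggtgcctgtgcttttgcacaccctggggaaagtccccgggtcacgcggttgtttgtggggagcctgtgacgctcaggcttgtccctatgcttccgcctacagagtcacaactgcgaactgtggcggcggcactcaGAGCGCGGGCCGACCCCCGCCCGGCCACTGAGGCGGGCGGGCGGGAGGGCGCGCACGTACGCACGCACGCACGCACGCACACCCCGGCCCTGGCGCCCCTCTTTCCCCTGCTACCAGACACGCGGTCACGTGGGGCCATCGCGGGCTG
The shared stretch holds the E box CACGTG, which is a single site in both windows.

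Of the 37 tested members, 17 changed at an adjusted p under 0.05 (45.9%), 9 of them higher and 8 lower in siTRIM28. Over all 18474 genes tested 41.8% changed, 21.3% higher and 20.5% lower, so the family lay near the background in both directions. When the log2 fold change also had to be 0.58 or more in size, 7 members passed (18.9%), 3 higher and 4 lower. The same rule took 17% of all genes, 9.51% higher and 7.51% lower. The CPM of the groups did not overlap in 22 members, 10 higher and 12 lower, and in 52% of all genes (26.3% higher and 25.7% lower). The median log2 fold change of the members was -0.14, beside 0.02 for all genes, and 24 of the 37 values were negative. Among all 18474 genes, 8955 values were negative. Among 444 tested genes named ZNF with a number, 261 were negative and the median was -0.08. Among 23 tested KLHL genes, 11 were negative and the median was 0.02. The median absolute log2 fold change was 0.28 in the family and 0.27 in all genes. Changes were small, from -0.87 for ZBTB14 to 0.75 for ZBTB43.

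**Figure D1:**
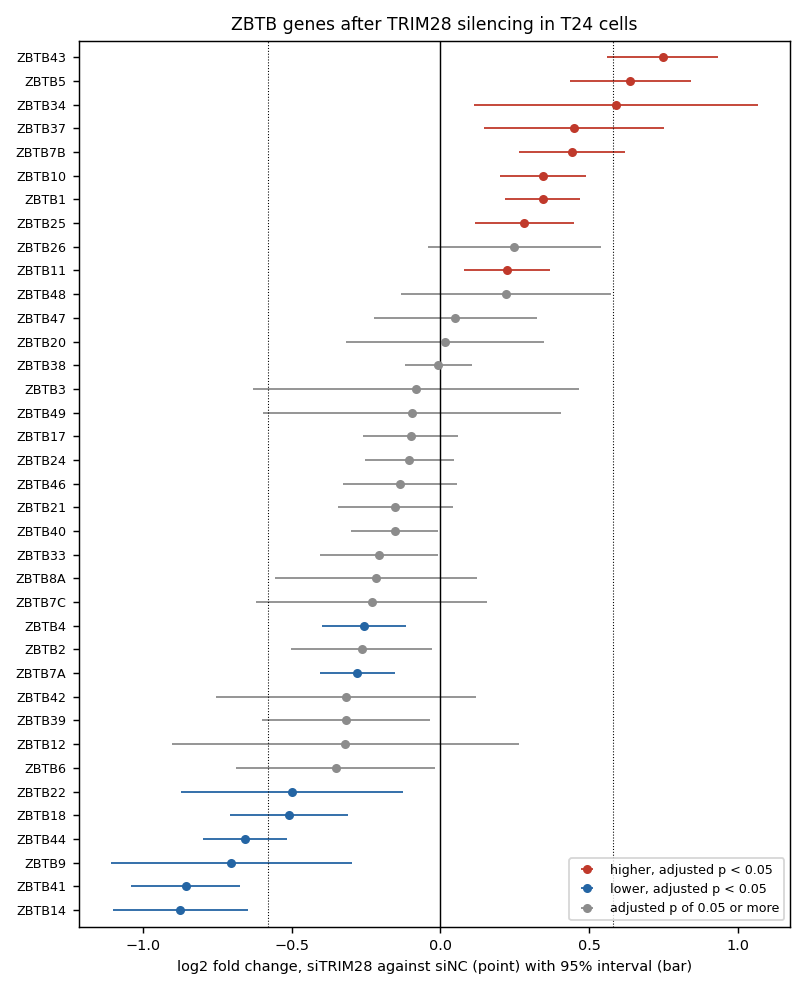
Log2 fold change (siTRIM28 against siNC) of the 37 tested ZBTB members, with bars for the 95% interval colours for higher, lower and not past the threshold, and dotted lines at -0.58 and 0.58. The values run from -0.87 (ZBTB14) to 0.75 (ZBTB43), with 9 members higher, 8 lower and 20 not past an adjusted p of 0.05.

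ZBTB43 had the largest rise. It was at 8.93, 8.81 and 8.47 CPM in siNC and at 14.8, 15.4 and 13.9 CPM in siTRIM28, in the order of the replicates here and below. Each siTRIM28 library lay above every siNC library, and the rise was 1.68-fold (log2 fold change 0.75, SE 0.0851, adjusted p = 2.98e-05, edgeR). The gene spans chr9:126805006-126836412 in the GRCh38 coordinates of the count table.

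ZBTB5, a repressor of the cell cycle inhibitor gene CDKN1A, lies on the short arm of the same chromosome (chr9:37438102-37465450). Its level was 11.7, 9.53 and 11.7 CPM in siNC and 17.8, 16.0 and 17.3 CPM in siTRIM28. The groups did not overlap and the rise was 1.56-fold (log2 fold change 0.64, SE 0.0932, adjusted p = 0.0002).

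ZBTB34, the neighbour of ZBTB43 (chr9:126860639-126885834), was at 2.95, 3.39 and 1.72 CPM in siNC and at 4.0, 3.97 and 4.31 CPM in siTRIM28. siNC replicate 3 was the lowest of the 6 libraries, and the siTRIM28 libraries were all higher than the siNC libraries. The rise of 1.51-fold just passed (log2 fold change 0.59, SE 0.218, adjusted p = 0.0473). It rests on few counts and did not pass without siNC replicate 1 (0.65, adjusted p = 0.0777), without siNC replicate 3 (0.36, adjusted p = 0.140), without siTRIM28 replicate 2 (0.61, adjusted p = 0.0768) or without siTRIM28 replicate 3 (0.54, adjusted p = 0.120). With DESeq2 the adjusted p was 0.0906, and with the close replicates summed it was 0.104.

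All 3 members that rose by at least 0.58 lie on chromosome 9, which holds 5 of the 40 members, all of them tested. The other two, ZBTB26 and ZBTB6, lie 2243 bases apart and had log2 fold changes of 0.25 and -0.35, neither past the threshold (adjusted p = 0.158 and 0.0850). Of the 752 genes of chromosome 9 that were tested, 20.3% were higher at an adjusted p under 0.05, 21.8% were lower and 9.31% also rose by at least 0.58.

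**Figure D2:**
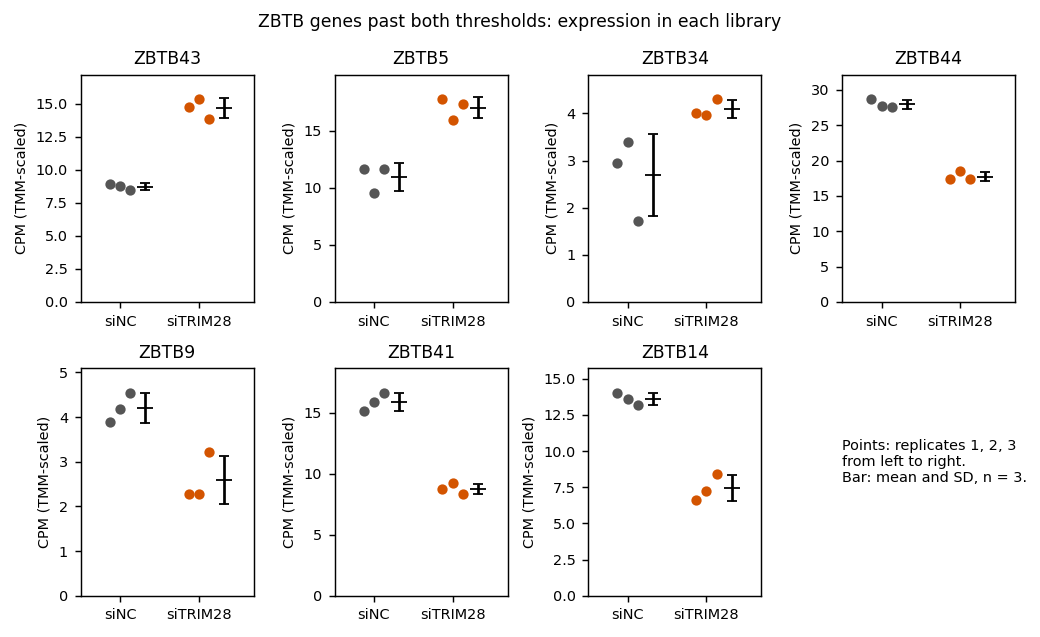
CPM (TMM-scaled) of the 7 members past both thresholds, each panel 1 gene with its own axis from 0. Points are single libraries (replicates 1, 2 and 3 from left to right) and the bar beside them is the mean and SD of 3, with ZBTB43, ZBTB5 and ZBTB34 higher in all siTRIM28 libraries and ZBTB14, ZBTB41, ZBTB44 and ZBTB9 lower in all of them.

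ZBTB14, also called ZF5 and first described as a repressor of the MYC promoter, fell the most. It was at 14.0, 13.6 and 13.2 CPM in siNC and at 6.64, 7.26 and 8.45 CPM in siTRIM28. The groups were far apart, and the log2 fold change was -0.87 (SE 0.103, adjusted p = 3.91e-05), which is 0.546 of the siNC level. It lies at chr18:5289019-5297053 and overlaps the antisense transcript LINC00667 by 1327 bases, whose own log2 fold change was -0.09.

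ZBTB41 (chr1:197153682-197201293) was at 15.1, 15.9 and 16.6 CPM in siNC and at 8.71, 9.21 and 8.36 CPM in siTRIM28. All siTRIM28 libraries were lower than all siNC libraries, to 0.552 of the siNC level (log2 fold change -0.86, SE 0.0842, adjusted p = 9.25e-06).

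ZBTB44 (chr11:130226677-130314908) fell less but with the tightest replicates of the 4. It was at 28.7, 27.7 and 27.5 CPM in siNC and at 17.4, 18.5 and 17.4 CPM in siTRIM28. The groups did not overlap, and the log2 fold change was -0.66 (SE 0.0649, adjusted p = 9.61e-06).

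ZBTB9 (chr6:33453970-33456190) was a low gene. It was at 3.89, 4.19 and 4.55 CPM in siNC and at 2.29, 2.28 and 3.21 CPM in siTRIM28. siTRIM28 replicate 3 was the highest of its group and still below every siNC library. The log2 fold change was -0.70 (SE 0.185, adjusted p = 0.00939). ZBTB22, 136029 bases away, was also lower, at 4.03, 5.34 and 5.64 CPM against 3.43, 3.46 and 3.72 CPM (log2 fold change -0.50, adjusted p = 0.0346). The fall of ZBTB22 did not pass without siNC replicate 2 (-0.46, adjusted p = 0.0977), siNC replicate 3 (-0.41, adjusted p = 0.113), siTRIM28 replicate 1 (-0.48, adjusted p = 0.0606), siTRIM28 replicate 2 (-0.49, adjusted p = 0.0780) or siTRIM28 replicate 3 (-0.55, adjusted p = 0.0530), nor with DESeq2 (adjusted p = 0.0968) or the close replicates summed (adjusted p = 0.0543). All 5 members of chromosome 6 had negative log2 fold changes, and ZBTB9 and ZBTB22 alone passed the threshold. Of the 958 genes tested on that chromosome, 19.7% were lower and 22.8% higher.

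ZBTB1 acts in lymphoid development and in the response to DNA damage, where it has been linked to phosphorylation of TRIM28. It was at 47.4, 49.0 and 49.0 CPM in siNC and at 59.1, 64.7 and 60.9 CPM in siTRIM28. The groups were clearly separated (log2 fold change 0.34, SE 0.0574, adjusted p = 0.000524). ZBTB25, whose annotation overlaps ZBTB1 by 1502 bases on the other strand, was at 22.5, 21.9 and 19.7 CPM and then at 24.4, 27.4 and 26.3 CPM. Its log2 fold change was 0.28 (adjusted p = 0.0104), and it did not pass without siNC replicate 3 (0.23, adjusted p = 0.0546) or with DESeq2 (adjusted p = 0.0503). Whether counting used strand is not given in the sources used here, so reads of ZBTB1 and ZBTB25 in the overlap cannot be told apart. ZBTB25 also overlaps part of the opposite-strand gene MTHFD1, by 14352 bases, and MTHFD1 was at 230 and 221 CPM (log2 fold change -0.06).

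Of the blood cell lineage factors, which comprise 6 members here, 4 were tested and 2 rose, against 21.3% of all genes. The 2 were ZBTB1 and ZBTB25, the overlapping pair, with the call of ZBTB25 lost in the fits named above. ZBTB46, a marker of classical dendritic cells, was at -0.14 (adjusted p = 0.242), and ZBTB20, a repressor of alpha-fetoprotein, at 0.02. ZBTB46 overlaps SLC2A4RG on the other strand by 383 bases, and SLC2A4RG fell from 99.5 to 29.9 CPM. ZBTB16 (PLZF) had 1, 0 and 1 counts in siNC and 1, 0 and 0 in siTRIM28, and ZBTB32 had 6, 0 and 1 and then 7, 3 and 1, so neither was tested. The third member below the count minimum, ZBTB8B, had 1, 2 and 3 counts in siNC and 7, 6 and 5 in siTRIM28.

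The ZBTB7 subfamily moved in both directions, with 2 of 3 members changed (66.7%, against 41.8% of all genes). ZBTB7B, or ThPOK, which commits T cells to the CD4 lineage, was at 13.5, 14.5 and 13.7 CPM in siNC and at 20.7, 18.1 and 17.7 CPM in siTRIM28. All siTRIM28 libraries were higher (log2 fold change 0.44, SE 0.0813, adjusted p = 0.00101). ZBTB7A, or LRF, which represses fetal globin and glycolysis genes, was at 55.2, 52.8 and 56.7 CPM in siNC and at 46.1, 44.1 and 45.4 CPM in siTRIM28. There the groups separated the other way (log2 fold change -0.28, adjusted p = 0.00219). The 95% intervals were 0.26 to 0.62 for ZBTB7B and -0.41 to -0.15 for ZBTB7A, and the difference between the genes was not tested. ZBTB7C was at -0.23 (adjusted p = 0.327).

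Among the 3 readers of methylated CpG, ZBTB4 fell and the others did not pass (33.3% changed, against 41.8% of all genes). ZBTB4 was at 22.5, 23.3 and 22.9 CPM in siNC and at 19.6, 18.3 and 19.4 CPM in siTRIM28. The groups did not overlap, with a log2 fold change of -0.26 (SE 0.0644, adjusted p = 0.00700), which did not pass with DESeq2 (adjusted p = 0.0669). ZBTB33, or Kaiso, was at -0.21 (adjusted p = 0.0895). ZBTB38 had the narrowest interval around 0 of these, with 87.3, 86.6 and 94.9 CPM in siNC and 88.8, 90.7 and 88.0 CPM in siTRIM28. Its log2 fold change was -0.01 (95% interval -0.12 to 0.11), and it turned slightly positive under upper-quartile or total-count scaling and without siNC replicate 3.

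Of the 2 telomere binders, ZBTB10 rose and ZBTB48 (TZAP) did not pass (50% changed, against 41.8% of all genes). ZBTB10, also a repressor of SP1, was at 50.2, 54.9 and 52.2 CPM in siNC and at 68.3, 70.3 and 61.1 CPM in siTRIM28. All siTRIM28 libraries were higher (log2 fold change 0.34, SE 0.0661, adjusted p = 0.00136). ENSG00000251867, which overlaps it by 1081 bases on the other strand, was at 1.87 and 2.96 CPM. ZBTB48 had a mean of 4.58 CPM in siNC and 5.33 CPM in siTRIM28 (log2 fold change 0.22, adjusted p = 0.300).

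Of the 3 regulators of cell cycle inhibitors, only ZBTB5 passed (33.3%, against 41.8% of all genes). ZBTB17, or MIZ1, which represses CDKN1A together with MYC, was at 48.8, 49.7 and 49.5 CPM in siNC and at 41.1, 47.8 and 49.3 CPM in siTRIM28 (log2 fold change -0.10, adjusted p = 0.296). siTRIM28 replicate 1 was the low library. ZBTB2 was at 9.86, 10.2 and 11.1 CPM and then at 7.64, 9.04 and 9.29 CPM, with no overlap (log2 fold change -0.26, adjusted p = 0.0700). ZBTB2 shares 910 bases on its own strand with ENSG00000297539, which rose from 1.97 to 4.80 CPM.

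Of the 3 members grouped under centromere methylation or brain development, ZBTB18 and ZBTB14 fell (66.7% lower, against 20.5% of all genes). The groups of members by role, this one among them, were chosen with earlier results of these data known, so their shares are only descriptions. ZBTB18 (RP58), a repressor in cortical neurons, was at 16.7, 13.9 and 14.9 CPM in siNC and at 11.0, 10.3 and 10.6 CPM in siTRIM28. The groups did not overlap (log2 fold change -0.51, SE 0.0906, adjusted p = 0.000829). ZBTB24, mutated in the ICF immunodeficiency syndrome, was at -0.10 (adjusted p = 0.252) and overlaps MICAL1 on the same strand by 5337 bases, where MICAL1 rose from 47.5 to 81.5 CPM.

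ZBTB37 and ZBTB11 rose by smaller amounts. ZBTB37 was at 5.11, 5.63 and 6.19 CPM in siNC and at 8.71, 7.26 and 7.01 CPM in siTRIM28 (log2 fold change 0.45, adjusted p = 0.0211). ZBTB11, which acts on mitochondrial genes, was at 56.7, 53.0 and 53.0 CPM and then at 58.3, 67.6 and 64.4 CPM (log2 fold change 0.22, adjusted p = 0.0165). The groups did not overlap in either gene. ZBTB37 shares 801 bases with GAS5 on the other strand, which was far more abundant at 94.7 CPM in siNC and 106 CPM in siTRIM28 (log2 fold change 0.16, adjusted p = 0.0934), and the part of its reads in the count of ZBTB37 was not tested. ZBTB37 did not pass without siNC replicate 1 (adjusted p = 0.0878), siNC replicate 2 (adjusted p = 0.0599) or siTRIM28 replicate 1 (adjusted p = 0.0833), nor with DESeq2 (adjusted p = 0.0701). ZBTB11 did not pass without siNC replicate 2 (adjusted p = 0.0857), siNC replicate 3 (adjusted p = 0.0532), siTRIM28 replicate 2 (adjusted p = 0.0721) or siTRIM28 replicate 3 (adjusted p = 0.0745). With the close replicates summed, the adjusted p was 0.0712 for ZBTB37 and 0.0985 for ZBTB11.

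The 20 members that did not pass had log2 fold changes from -0.35 to 0.25 and adjusted p-values from 0.0678 to 0.947. For 13 of them the whole 95% interval lay within 0.58 of 0, and for the other 7 (ZBTB3, ZBTB49, ZBTB7C, ZBTB42, ZBTB39, ZBTB12 and ZBTB6) it reached further, so a change of that size was not excluded. Of these 7, the log2 fold changes were -0.08 for ZBTB3, -0.10 for ZBTB49, -0.32 for ZBTB42, ZBTB39 and ZBTB12. ZBTB21 and ZBTB40 were at -0.15, ZBTB8A at -0.22 and ZBTB47 at 0.05. Low genes were common here, and 11 of the 16 tested members under 10 CPM in siNC did not pass, beside 20 of all 37 tested members.

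Per kilobase of annotated exon, the siNC levels of the tested members ran from 0.195 to 11.6 CPM per kb, with a median of 1.83. ZBTB17 stood at the top (11.6 CPM per kb), followed by ZBTB7A (8.15), ZBTB1 (7.65), ZBTB38 (6.29), ZBTB10 (5.13) and ZBTB40 (4.49). ZBTB20 (0.195), ZBTB37 (0.291) and ZBTB34 (0.401) were lowest. In siTRIM28 ZBTB17 was still highest (10.9 CPM per kb), and ZBTB1 (9.72) stood above ZBTB7A (6.71), with libraries of ZBTB17 and ZBTB1 overlapping. Annotated exon length takes every isoform together, so a gene with long unused exons appears low on this scale. Median siNC levels were 13.9 CPM for the higher, 15.5 CPM for the lower and 7.07 CPM for the members that did not pass.

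**Figure D3:**
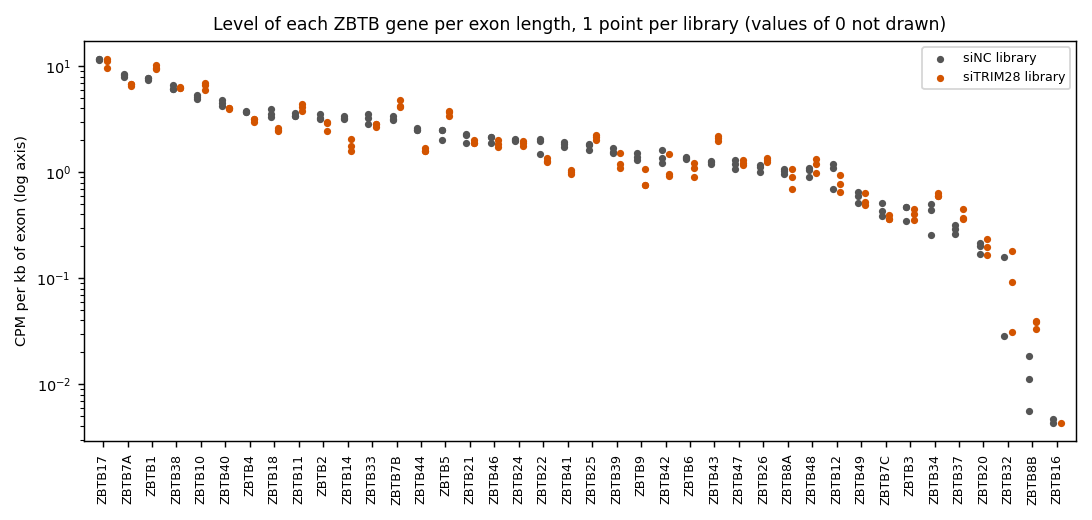
Level per kilobase of annotated exon (CPM per kb, log axis) of all 40 members, 1 point per library, ordered by the siNC mean, with values of 0 not drawn. ZBTB17, ZBTB7A and ZBTB1 lead with siNC means of 11.6, 8.15 and 7.65, and ZBTB20 is the lowest tested member at 0.195, left of the 3 members that were not tested.

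Other genes with the same architecture but other names were taken from a list. Of 7 tested BTB zinc finger genes, 3 changed (42.9%, against 41.8% of all genes), 2 higher and 1 lower. Leaving out each library in turn gave 2 to 4 changed, beside 34.5% to 44.7% of all genes. Summing the close replicates gave 2, beside 32.1%. The genes called in those refits are not given here. HIC2 rose, at 2.81, 3.97 and 3.68 CPM in siNC and at 7.07, 5.83 and 5.91 CPM in siTRIM28 (log2 fold change 0.85, adjusted p = 0.00167). HIC1, a tumour suppressor gene, fell, at 5.11, 4.26 and 4.23 CPM and then at 3.50, 3.12 and 2.11 CPM (log2 fold change -0.63, adjusted p = 0.0229). The groups did not overlap in either gene. The third, BCL6, a repressor in germinal centre B cells named after its values were seen, was at 25.9, 28.7 and 26.0 CPM and then at 35.0, 36.5 and 37.7 CPM (log2 fold change 0.44, adjusted p = 0.000281).

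Of 16 corepressors and binding partners of ZBTB proteins, 9 changed (56.2%, against 41.8% of all genes), 7 lower (43.8%, against 20.5%) and 2 higher (12.5%, against 21.3%). Their median log2 fold change was -0.09, and 2 fell past -0.58. This list was chosen with earlier results of these data known, so its shares are only descriptions. With the close replicates summed, 6 of the 16 changed, beside 32.1% of all genes. DESeq2 also gave 6, beside 31.8%. Upper-quartile scaling gave 7 and total counts 8, beside 42.2% and 41.8%. RLE scaling and limma-voom kept 9, beside 41.8% and 41.7%. TBL1X, a subunit of the NCOR complex, was at 36.1, 38.6 and 40.0 CPM in siNC and at 21.8, 18.2 and 19.3 CPM in siTRIM28 (log2 fold change -0.95, adjusted p = 2.32e-06). CTNND1, or p120 catenin, which binds Kaiso, was at 152, 153 and 153 CPM and then at 99.2, 102 and 104 CPM (log2 fold change -0.59, adjusted p = 8.36e-07). In both genes every siTRIM28 library was lower.

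Textbook targets of these proteins were tested where they reached the count minimum, 8 of 12, and CDKN2B, HBG1, HBG2 and AFP did not. Of the 8, 5 were higher (62.5%, against 21.3% of all genes) and 1 lower (12.5%, against 20.5%), with a median log2 fold change of 0.40. The list was chosen with earlier results of these data known and mixes repressed with activated targets, so these shares are only descriptions. CDKN1A is known to be repressed by ZBTB2 and ZBTB5, and by ZBTB17 when it acts together with MYC. It was at 16.3, 14.7 and 13.6 CPM in siNC and at 31.4, 29.8 and 27.6 CPM in siTRIM28 (log2 fold change 0.99, adjusted p = 2.38e-06). Its groups were far apart. Of the members just named, ZBTB5 was higher (log2 fold change 0.64). ZBTB2 (-0.26, adjusted p = 0.0700) and ZBTB17 (-0.10, adjusted p = 0.296) did not pass. SLC2A3, a glucose transporter gene that ZBTB7A represses, was at 3.02, 2.67 and 2.82 CPM and then at 10.5, 8.53 and 10.4 CPM (log2 fold change 1.79, adjusted p = 2.10e-06). PFKP, a glycolytic enzyme gene on the same list of ZBTB7A targets, was at 254, 264 and 265 CPM and then at 383, 419 and 416 CPM (log2 fold change 0.64, adjusted p = 6.33e-07). MTFP1, a gene ZBTB48 activates, was at 6.84, 7.80 and 7.37 CPM and then at 16.4, 12.3 and 13.9 CPM (log2 fold change 0.96, adjusted p = 5.73e-05). In all 4 genes the groups did not overlap. The lower gene, named after its values were seen, was CDCA7, which ZBTB24 activates, at 46.7, 44.9 and 45.9 CPM and then at 34.0, 30.7 and 35.2 CPM (log2 fold change -0.46). The remaining tested targets, also named after their values were seen, had log2 fold changes of 0.16 or less. PKM, a further ZBTB7A target, passed with a log2 fold change of 0.09 (adjusted p = 0.0338), while MCM10, a ZBTB38 target, was at 0.16 (adjusted p = 0.0976). SP1, which ZBTB10 represses, was at 50.5, 52.9 and 53.3 CPM and then at 52.6, 54.3 and 50.8 CPM (log2 fold change 0.01, adjusted p = 0.915), with the groups overlapping. The part of any ZBTB member in these changes was not tested.

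**Figure D4:**
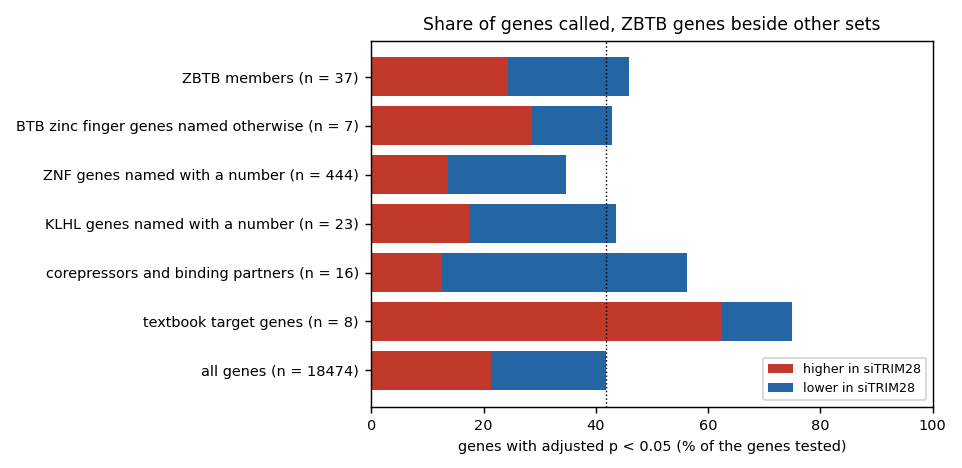
Share of tested genes (percent) higher and lower at an adjusted p under 0.05 in the ZBTB family, other gene sets and all genes, stacked, with a dotted line at the total of all genes. The family has 24.3% higher and 21.6% lower, and all genes have 21.3% and 20.5%.

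Against other gene classes, 34.7% of 444 tested genes named ZNF with a number changed, 13.7% higher and 20.9% lower. Of 23 tested KLHL genes, which share the BTB domain without zinc fingers, 43.5% changed, 17.4% higher and 26.1% lower. The differences between these classes were not tested. In bulk RNA, a change in the number of cells of a state and a change in RNA per cell cannot be told apart.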

How the data were processed

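Polyadenylated RNA of T24 cells was made into 6 stranded libraries, and the titles do not say whether each came from its own culture. The authors deposited unnormalized read counts for each gene, by Ensembl identifier with GRCh38 coordinates. The submitters' processing notes name fastp 0.23.1, STAR 2.7.6a and featureCounts, and the strand setting of the counting is not given in the sources used here. A second deposited table holds RPKM values of genes the authors selected as changed and was not used. The edgeR quasi-likelihood test (version 4.0.16, R 4.3.3) was fitted after TMM scaling with the transfected siRNA as its single factor, to every gene that reached 10 counts in 3 or more libraries, with Benjamini-Hochberg adjustment over all of them. The standard error is the log2 fold change over the square root of F. Levels per kilobase divide TMM-scaled CPM by the exon length in the count table. An exact permutation test of 3 against 3 libraries cannot give a p under 0.1 and was not used. The test was checked on counts simulated as independent libraries with 200 changed genes. That check does not cover the close replicates or the larger share of changed genes found here. RefSeq promoter windows were matched by symbol for 34 of the 40 members.

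Members passing an adjusted p of 0.05 and an absolute log2 fold change of 0.58, and the most changed member of each role group, are given library by library. Other tested members are given by log2 fold change or count. The members, role groups and lists were chosen with earlier results of these data known. Some genes of the marker lists, and some that overlap members, are not reported here. Same-numbered replicates of the groups did not deviate together (correlations of 0.0523, -0.0118 and 0.0374), so the numbers were not taken as pairs. Alternatives were DESeq2 1.42.0, limma-voom (limma 3.58.1), RLE, upper-quartile and total-count scaling, 2 other count filters, a replicate block, leaving out each library, summing the close replicates and an adjusted p of 0.01.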

Additional observations from a re-analysis of the deposited data

How the results depend on the processing

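All 17 changed members kept their sign in every alternative, and 11 of them (ZBTB43, ZBTB5, ZBTB7B, ZBTB10, ZBTB1, ZBTB7A, ZBTB18, ZBTB44, ZBTB9, ZBTB41 and ZBTB14) passed an adjusted p of 0.05 in every refit. At an adjusted p under 0.01, 5 members were higher in place of 9 and 7 lower in place of 8, beside 14.4% and 14.8% of all genes. Leaving out each library in turn gave 13 to 17 changed members, 6 to 8 higher and 7 to 10 lower, beside 34.5% to 44.7% of all genes changed, with TRIM28 between -3.58 and -3.49. DESeq2 called 12 members and 5878 genes (31.8%), and summing the close replicates left 13 members and 5935 genes (32.1%). With the replicate block, 18 members changed, 9 in each direction, among 7910 genes, and ZBTB39 was the added member (adjusted p = 0.0370). Upper-quartile scaling made 56.6% of changed genes higher, against 51.1% with TMM. ZBTB34, ZBTB37, ZBTB22, ZBTB25 and ZBTB11 lost their call when a single library was left out, and the cause was not tested. Of the 16 tested members under 10 CPM in siNC, 11 did not pass, beside 20 of all 37 tested members. The part of depth in this was not tested.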

Other observations

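RefSeq promoter windows of 300 bases were available for 34 of the 40 members, 65 windows in all, because some genes have several starts. Their median GC content was 62.3%, against 58.7% over all 35116 windows, and they held a median of 21 CpG against 14. The GC box GGGCGG was found on either strand in 61.5% of the member windows and in 45% of all windows, the ETS core CCGGAA in 24.6% and 17.2%, CCAAT in 41.5% and 34.6%, and the E box CACGTG in 12.3% and 7.26%. These shares were counted without a test, and windows of genes with close starts overlap, so that a single site can be counted more than once.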
